A study of Mus musculus with 9 samples.

Results

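The genes described here encode mitochondrial ribosomal proteins, and were examined in whole lenses of *Atf4* null and wildtype mouse embryos. Members were the protein-coding genes whose symbol is Mrpl or Mrps followed by a digit. This rule took 78 of the 55416 genes in the count files, 49 with an Mrpl and 29 with an Mrps symbol. RNA was sequenced from single pairs of lenses at E16.5 of embryonic development, with 4 *Atf4* null and 5 wildtype libraries. *Atf4* encodes a transcription factor of the integrated stress response. The null embryos were homozygous for *Atf4*tm1Tow, a germline allele in which a neomycin resistance cassette takes the place of exons 3 and 4, so that *Atf4* was missing from the whole embryo and not from the lens alone. Both genotypes came from intercrosses of heterozygotes on a mixed C57Bl/6/129 background that was not typed for the *Bfsp2* deletion of 129 mice, and whole lenses hold epithelial and fiber cells together. *Atf4* itself lay at 3.29, 8.64, 10.6 and 0.582 CPM (counts scaled to library size, with TMM factors) in the null libraries and between 119 and 155 CPM in the wildtype libraries, so every library fitted its label.

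Mitochondria translate the mRNAs of their own genome on a ribosome of their own, the mitoribosome. Its ribosomal RNAs are transcribed from mitochondrial DNA, while all of its proteins are encoded in the nucleus, made in the cytosol and imported. Mrpl genes encode proteins of the large subunit, which forms peptide bonds, and Mrps genes mostly those of the small subunit, which decodes the mRNA. Some of these proteins have a counterpart in the bacterial ribosome and others are found only in mitochondria. The products of mitochondrial translation are subunits of the respiratory chain and of the ATP synthase. In the lens, mitochondria are kept in the epithelium and the outer fibers and are removed as fibers mature.

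The promoter windows of 6 members are shown first as sequence: of the members called or without overlap between genotypes that have a window, these hold the motif letters described here, and 4 of them belong to genes that rose in the null lenses. Each runs from 250 bases before to 50 bases after the annotated start, 5′ to 3′ on the gene's strand, and was taken from RefSeq on the build GRCm38.p6, an earlier build than the GRCm39 of the counts. Capitals mark matches to the NRF1 motif (*Mrpl39*, *Mrpl9* and *Mrps26*), to CCGGAAG (ETS factors such as GABPA, in *Mrps22* and, on the other strand, *Mrps26*) or to the ZNF143 motif (*Mrps22*, *Mrpl24* and *Mrpl42*), searched on both strands. The windows lie at chr9:98601630-98601929 on the minus strand (*Mrps22*), chr3:87919294-87919593 on the plus strand (*Mrpl24*), chr16:84735195-84735494 on the minus strand (*Mrpl39*), chr3:94443086-94443385 on the plus strand (*Mrpl9*), chr10:95501900-95502199 on the minus strand (*Mrpl42*) and chr2:130563507-130563806 on the plus strand (*Mrps26*).
Mrps22: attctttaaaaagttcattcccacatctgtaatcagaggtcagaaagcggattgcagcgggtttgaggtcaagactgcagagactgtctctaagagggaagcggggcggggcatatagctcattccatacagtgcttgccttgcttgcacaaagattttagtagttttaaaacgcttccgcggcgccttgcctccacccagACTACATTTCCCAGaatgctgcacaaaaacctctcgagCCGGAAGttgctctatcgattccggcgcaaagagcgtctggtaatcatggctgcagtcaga
Mrpl24: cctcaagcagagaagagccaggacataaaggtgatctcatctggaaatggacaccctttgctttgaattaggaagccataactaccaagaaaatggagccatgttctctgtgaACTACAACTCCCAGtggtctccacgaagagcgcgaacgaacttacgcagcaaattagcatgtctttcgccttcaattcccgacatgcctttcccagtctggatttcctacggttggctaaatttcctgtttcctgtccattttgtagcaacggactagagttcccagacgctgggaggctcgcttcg
Mrpl39: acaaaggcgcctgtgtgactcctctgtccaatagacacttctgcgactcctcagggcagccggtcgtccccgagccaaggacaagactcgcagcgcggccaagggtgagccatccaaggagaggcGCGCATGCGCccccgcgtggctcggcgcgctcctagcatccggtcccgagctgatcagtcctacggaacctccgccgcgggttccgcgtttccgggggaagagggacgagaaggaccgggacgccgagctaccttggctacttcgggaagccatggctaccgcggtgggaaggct
Mrpl9: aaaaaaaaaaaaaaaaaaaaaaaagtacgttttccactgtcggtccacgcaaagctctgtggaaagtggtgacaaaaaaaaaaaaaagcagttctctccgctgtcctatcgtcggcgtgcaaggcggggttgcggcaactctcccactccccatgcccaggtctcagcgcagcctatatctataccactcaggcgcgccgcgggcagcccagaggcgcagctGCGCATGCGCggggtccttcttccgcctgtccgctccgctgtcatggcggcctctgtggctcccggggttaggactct
Mrpl42: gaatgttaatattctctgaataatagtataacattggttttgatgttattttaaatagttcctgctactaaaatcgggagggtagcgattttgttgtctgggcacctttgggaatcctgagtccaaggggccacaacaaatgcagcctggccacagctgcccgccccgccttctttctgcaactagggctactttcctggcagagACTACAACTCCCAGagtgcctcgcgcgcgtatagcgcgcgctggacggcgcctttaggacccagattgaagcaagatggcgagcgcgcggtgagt
Mrps26: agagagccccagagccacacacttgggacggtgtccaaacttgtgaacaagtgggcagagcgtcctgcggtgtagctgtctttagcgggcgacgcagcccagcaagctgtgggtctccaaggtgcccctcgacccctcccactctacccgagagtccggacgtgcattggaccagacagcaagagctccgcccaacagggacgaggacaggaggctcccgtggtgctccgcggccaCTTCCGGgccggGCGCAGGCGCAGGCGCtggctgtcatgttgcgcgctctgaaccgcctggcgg

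*Mrps22* and *Mrpl24*, which rose, and *Mrpl42*, which did not pass the test and was lower in every null library, held the ZNF143 letters. *Mrpl39* and *Mrpl9*, which rose, each held 1 match to the letters of NRF1, a factor known to act at the promoters of nuclear genes for mitochondrial proteins. *Mrps26*, which was lower in every null library and did not pass the test, held them in 2 overlapping matches. A window was found for 69 of the 78 members, *Mrpl19* not among them. Of these, 26 (37.7%) held CCGGAAG against 9.93% of 27025 genes with a window, and 13 (18.8%) held the NRF1 motif against 5.19%. The YY1 motif stood in 5 members (7.25%) against 0.995% of all genes. The ZNF143 motif, added after the sequences had been seen, stood in 4 (5.80%, *Mrpl24*, *Mrpl34*, *Mrpl42* and *Mrps22*) against 1.18%. Of these 4, all but *Mrpl34* are among the windows in which the motif was first seen, so its share is no independent measure. TGATGCAA, an element bound by ATF4 with C/EBP partners, stood in 0 of the 69 members' windows and in 1.03% of all genes, which says only that these letters are not in these windows. The 24 tested members with CCGGAAG had a median log2 fold change of 0.03 and the 43 without it one of 0.20. The 13 tested members with the NRF1 motif had a median of 0.20 and the 54 without it one of 0.13. The matches are letters in a window and were not tested as binding sites.

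Of the 78 members, 76 had enough counts to be tested with edgeR's quasi-likelihood test among 14903 genes. At an adjusted p below 0.05, 5 members were higher in the *Atf4* null lens (6.58% of the 76), where 2.23% of all genes tested were called higher. These were *Mrps22*, *Mrpl24*, *Mrpl39*, *Mrpl19* and *Mrpl9*, with 1.67-fold to 1.97-fold higher levels. No member was called lower, where 3.67% of all genes were, and 5.9% of all genes were called in either direction. At an unadjusted p below 0.05, 10 members were higher and 7 lower, where 9.31% and 10.2% of all genes were. DESeq2 called 7 members higher and 2 lower, where it called 3.77% and 5.6% of all genes. With edgeR's exactTest, 6 members were called higher and 1 lower, against 2.73% and 4.38% of all genes. The median log2 fold change over the 76 was 0.13, against 0.00 over all genes tested, but it was 0.02 without null library 4 and 0.05 with the replicate number as a block, which also takes wildtype library 5, the one library of its number, out of the comparison. The number called higher fell to 2 without null library 2 or wildtype library 3, and to 3 with the block. Of the 76, 48 were fitted above 0 and 28 below, 59 lay within 0.5 of 0, and *Mrpl47* alone reached 1. The standard errors of these log2 fold changes had a median of 0.23 and ran from 0.14 to 0.50.

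**Figure D1:**
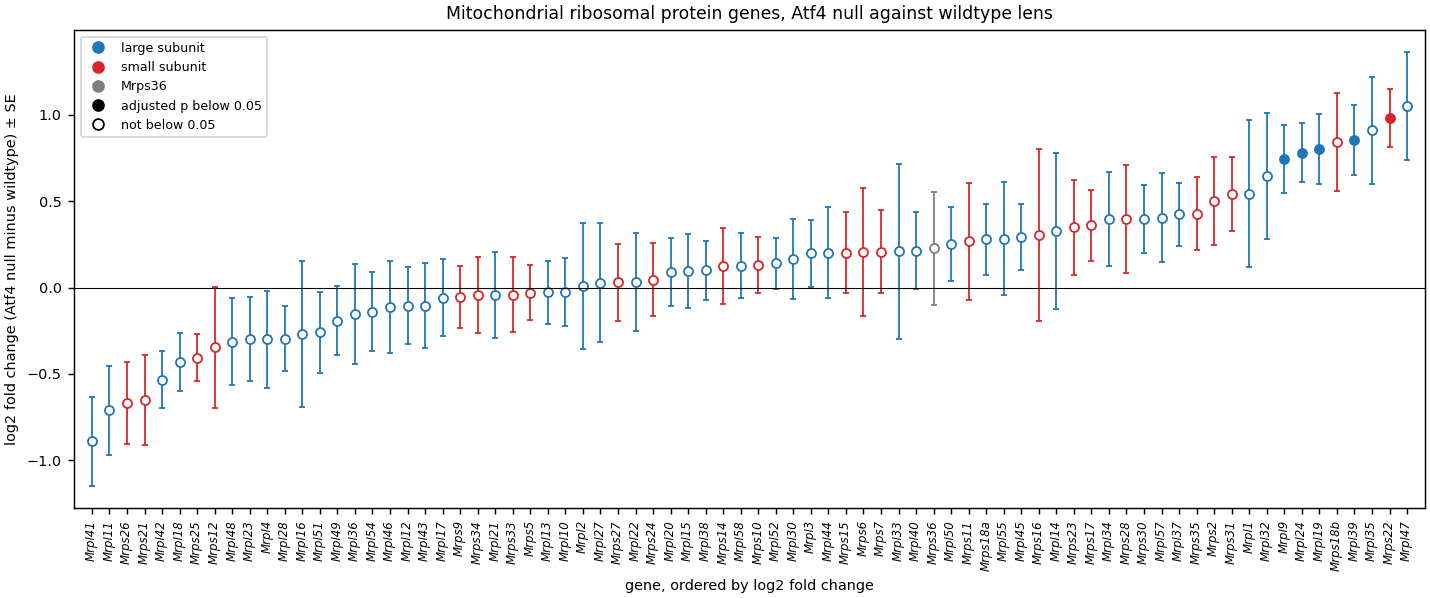
Log2 fold change (Atf4 null minus wildtype, n = 4 and 5 libraries) of the 76 tested mitochondrial ribosomal protein genes with its standard error, ordered by size, with filled points for an adjusted p below 0.05. The 5 filled points are all above 0, between 0.74 and 0.98, and open points at both ends have wider errors.

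*Mrps22*, a mitochondria-specific protein of the small subunit (GRCm39 chr9:98470779-98483732, minus strand), had 39.6, 41.3, 49.5 and 55.9 CPM in the null libraries and 21.7, 23.8, 29.0, 21.5 and 21.8 CPM in the wildtype libraries. All null values were above all wildtype values. Its log2 fold change was 0.98 ± 0.17 (SE), 1.97-fold, with an adjusted p of 0.00406 from edgeR's quasi-likelihood test. On the level per length, it went from 5.90 ± 0.796 FPKM (SD, n = 5) in the wildtype to 11.6 ± 1.90 FPKM (SD, n = 4) in the null lens. It passed the threshold under all 17 alternatives, with adjusted p between 1.73e-05 and 0.0205.

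*Mrpl24*, a large subunit protein with a bacterial counterpart that lines the exit of the peptide tunnel (chr3:87826798-87832192, plus strand), had 41.4, 40.7, 44.0 and 60.0 CPM in the null and 30.2, 23.1, 29.8, 25.3 and 26.9 CPM in the wildtype libraries. The groups did not overlap, and null library 4 stood above the other null libraries. The fitted log2 fold change was 0.78 ± 0.17 (SE), with an adjusted p of 0.0152 from edgeR, and between 0.00128 and 0.0471 under the 17 alternatives, all of which kept the call. Its mean level was 7.80 ± 0.864 FPKM (SD, n = 5) in the wildtype and 13.4 ± 2.62 FPKM (SD, n = 4) in the null lens.

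*Mrpl39*, a mitochondria-specific protein of the large subunit (chr16:84502276-84533793, minus strand), had 49.3, 54.1, 54.1 and 55.3 CPM in the null and 32.1, 30.6, 25, 41.3 and 18.3 CPM in the wildtype libraries. The null libraries lay close together and all above the more scattered wildtype ones, of which library 5 was the lowest. The log2 fold change was 0.85 ± 0.20 (SE) with an adjusted p of 0.0245 from edgeR. The call was lost without null library 2 (edgeR adjusted p = 0.0681) or 3 (0.0651) and without wildtype library 2 (0.0537) or 3 (0.0660), and kept under the other 13 alternatives.

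*Mrpl19*, a large subunit protein with a bacterial counterpart (chr6:81934832-81942943, minus strand), had 28.3, 36.6, 36.7 and 51.5 CPM in the null and 22.0, 27.2, 20.6, 22.4 and 17.6 CPM in the wildtype libraries. The groups did not overlap, but the lowest null library stood only just above the highest wildtype one. The null level was higher by 0.80 ± 0.20 (SE) on the log2 scale, with an edgeR adjusted p of 0.0323. The adjusted p was between 0.0687 and 0.0896 in edgeR fits without null library 2, 3 or 4, without wildtype library 1, 3 or 4, or with the replicate number as a block (0.0871), and the call was kept under the other 10 alternatives.

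*Mrpl9*, another large subunit protein with a bacterial counterpart (chr3:94350594-94358437, plus strand), had 26.6, 27, 18.9 and 23.7 CPM in the null and 16.9, 12.3, 14.6, 15.4 and 12.5 CPM in the wildtype libraries. The groups did not overlap. Its log2 fold change was 0.74 ± 0.20 (SE) with an edgeR adjusted p of 0.0436, the nearest to the threshold of the members called. The call was kept under 7 of 17 alternatives. It was lost without any 1 library other than null library 3, with edgeR adjusted p from 0.0552 (without wildtype library 1) to 0.125 (without null library 2), with the replicate block (0.125) and with no filter on low counts (0.0908).

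In an exact permutation test of each gene (two-sided, on mean log2 CPM), *Mrps22*, *Mrpl24*, *Mrpl19* and *Mrpl9* had an unadjusted p of 0.00794, the smallest the design allows, and *Mrpl39* had p = 0.0159. As none of the 5 overlapped between genotypes, a p at or near this floor follows from the separation and is no further support. Of all genes tested, 4.65% were separate in this direction. All 5 were higher in the null under every alternative. Over the alternatives, their log2 fold changes ran from 0.88 to 1.09 (*Mrps22*), 0.63 to 0.89 (*Mrpl24*), 0.73 to 1.01 (*Mrpl39*), 0.62 to 0.93 (*Mrpl19*) and 0.68 to 0.88 (*Mrpl9*).

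Among the members, 6 (7.89%) did not overlap between genotypes in the higher direction, against 4.65% of all genes tested, and 4 (5.26%) in the lower direction, against 5.58%. The sixth of the first kind was *Mrps31*, a mitochondria-specific protein of the small subunit, with 18.5, 16.4, 22.5 and 20.5 CPM in the null and 15.8, 13.1, 15.9, 11 and 11.1 CPM in the wildtype libraries. The log2 fold change of 0.54 ± 0.21 (SE) did not pass the test (edgeR adjusted p = 0.172).

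The 4 members with lower values in every null library were *Mrpl41*, *Mrpl42*, *Mrps25* and *Mrps26*, all specific to mitochondria, and edgeR's quasi-likelihood test called none of them. *Mrpl41* (chr2:24862319-24865956, minus strand) had 7.97, 10.4, 10.5 and 7.72 CPM in the null and 18.6, 19.4, 22.1, 11.5 and 13.4 CPM in the wildtype libraries. Its log2 fold change was -0.89 ± 0.26 (SE), 1.85-fold lower, with an edgeR adjusted p of 0.0629. It passed the threshold with DESeq2 (0.0251), with edgeR's exactTest (0.0440) and in the edgeR fit without wildtype library 5 (0.0400). *Mrpl42* (chr10:95316559-95346150, minus strand) had 25.6, 30.8, 31.9 and 35.8 CPM in the null and 37.9, 49.2, 52.0, 45.8 and 39.4 CPM in the wildtype libraries. The highest null library was just under the lowest wildtype one. The fitted difference was -0.53 ± 0.16 (SE) on the log2 scale, with an adjusted p of 0.0784 from edgeR and 0.0415 from DESeq2.

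*Mrps25* was the steadiest of these 4, with 33.8, 30.4, 34.0 and 37.0 CPM in the null and 46.0, 41.6, 46.8, 44.8 and 44.4 CPM in the wildtype libraries. The log2 fold change was -0.41 ± 0.14 (SE), with an adjusted p of 0.110 from edgeR. Its unadjusted p from the exact permutation test was 0.00794, the smallest the design allows. This p restates that the groups did not overlap, as was so for 5.58% of all genes tested in this direction. *Mrps26* had 17.8, 45.7, 42.1 and 50.5 CPM in the null and 60.1, 60.6, 62.6, 70.0 and 56.2 CPM in the wildtype libraries. Null library 1 stood far under the others. The log2 fold change of *Mrps26* was -0.67 ± 0.24 (SE) with an edgeR adjusted p of 0.131. It did not pass under any of the 17 alternatives (0.0523 to 0.240), and neither did *Mrps25* (0.0799 to 0.251).

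**Figure D2:**
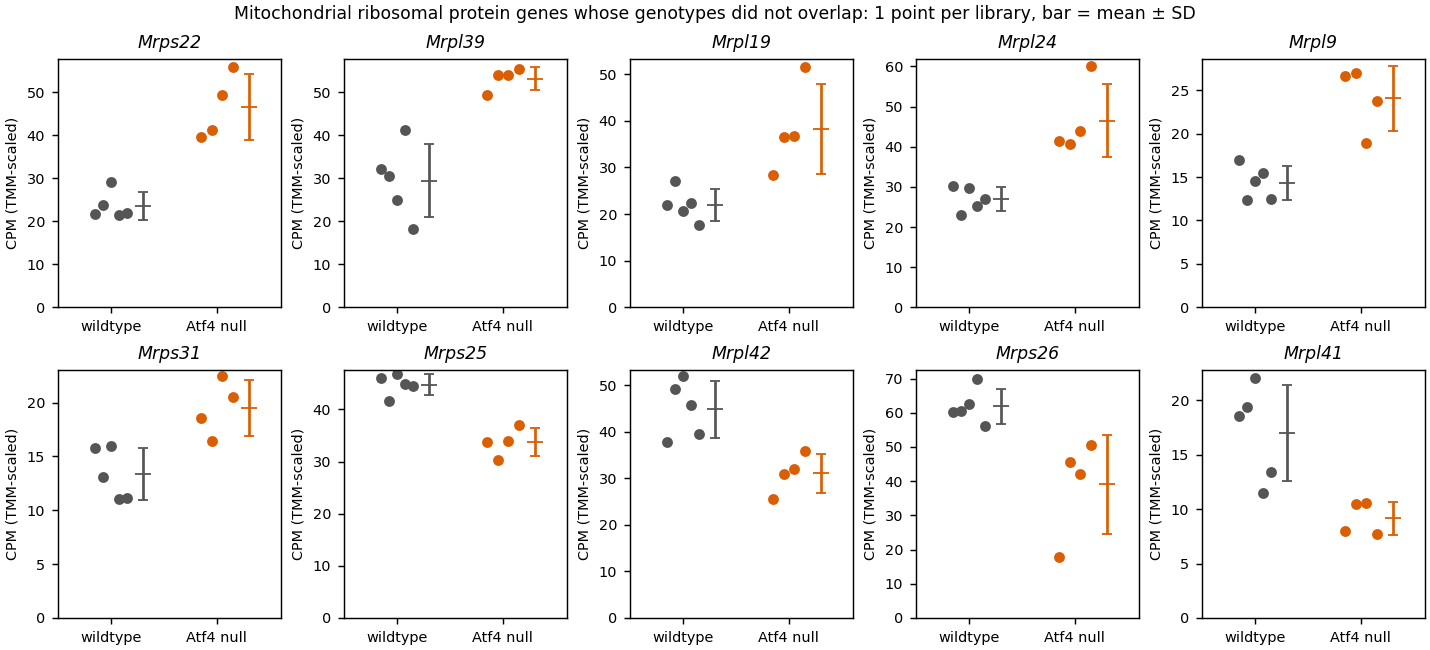
CPM scaled by TMM factors in each library (1 point each, mean ± SD as a bar) of the 10 mitochondrial ribosomal protein genes whose wildtype (n = 5) and Atf4 null (n = 4) libraries did not overlap. The first 6 panels have the null libraries above and the last 4 have them below, and the Mrps26 null values spread from 17.8 to 50.5 CPM.

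Of the other members with large fitted changes, none passed the test in edgeR's quasi-likelihood fit. *Mrpl47*, a neighbour of *Mrpl24* at the tunnel exit, had the highest fitted value of all members. It had 11.9, 19.4, 15.6 and 8.30 CPM in the null and 7.32, 5.68, 8.52, 4.56 and 7.17 CPM in the wildtype libraries, so that null library 4 lay among the wildtype ones. *Mrpl47* had a log2 fold change of 1.05 ± 0.31 (SE), with an adjusted p of 0.0688 from edgeR. DESeq2 (0.0260), the exactTest (0.0398), library size without TMM factors (0.0426) and the edgeR fit without null library 4 (0.0338) called it. *Mrpl35* overlapped in 1 wildtype library (23.1 CPM against a lowest null value of 19.2 CPM) and had a log2 fold change of 0.91 ± 0.31 (SE) with an edgeR adjusted p of 0.113 and 0.0493 with DESeq2. *Mrpl11*, a protein of the stalk that recruits translation factors, had 8.97, 7.20, 8.77 and 15.6 CPM in the null against 14.8 to 18.8 CPM in the wildtype. Null library 4 alone overlapped the wildtype. The log2 fold change of *Mrpl11* was -0.71 ± 0.26 (SE) with an edgeR adjusted p of 0.137, and -0.99 with 0.0299 without null library 4. *Mrps21* had 8.27 to 12.6 CPM in the null and 10.5 to 20.8 CPM in the wildtype, and a log2 fold change of -0.65 ± 0.26 (SE) with an edgeR adjusted p of 0.181.

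Grouped by their place in the ribosome, the 30 tested large subunit proteins with a bacterial counterpart had a median log2 fold change of 0.06, with 3 called higher (*Mrpl9*, *Mrpl19* and *Mrpl24*). The 20 tested mitochondria-specific proteins of the large subunit had a median of 0.13, with *Mrpl39* called. In the small subunit, the 15 tested proteins with a bacterial counterpart had a median of 0.20, with 0 called by edgeR's quasi-likelihood test, DESeq2 or the exactTest and 1 lower at an unadjusted p below 0.05. The 10 mitochondria-specific ones had a median of 0.19 and a range from -0.67 (*Mrps26*) to 0.98 (*Mrps22*), so the lowest and the highest small subunit proteins were of the same group. Without null library 4, the medians over all large and all small subunit proteins were both 0.02, against 0.10 and 0.20 with it. *Mrps36*, which carries an Mrps symbol but is now known as a component of the 2-oxoglutarate dehydrogenase complex, had a log2 fold change of 0.23 (edgeR adjusted p = 0.781).

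The *Mrps18* family holds 3 paralogs that sit at different places: *Mrps18a* in the large subunit, and *Mrps18b* and *Mrps18c* in the small subunit. *Mrps18b* had 10.8, 13.0, 21.9 and 19.2 CPM in the null and 6.16, 8.39, 9.76, 12 and 8.89 CPM in the wildtype libraries. Null library 1 alone overlapped the wildtype, and the log2 fold change of 0.84 ± 0.28 (SE) did not pass the test (edgeR adjusted p = 0.111, between 0.0550 and 0.313 under the alternatives). *Mrps18a* had 21.1 to 38.4 CPM in the null and 20.03 to 26.8 CPM in the wildtype, with a log2 fold change of 0.28 ± 0.21 (SE) and an edgeR adjusted p of 0.518. *Mrps18c* had only 67 counts over the 9 libraries and was not tested. Of its 4156 annotated exon bases, 3491 overlap other genes, mostly on the opposite strand, and the part of this overlap in the low count was not tested.

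Per length, the 78 genes were expressed at a moderate level in the wildtype lens. Their wildtype means had a median of 6.23 FPKM and an interquartile range of 3.96 to 10.1 FPKM, against a median of 4.00 FPKM over all genes tested. The highest was *Mrpl28* at 25.1 ± 5.26 FPKM (SD, n = 5), followed by *Mrpl18* at 24.1 ± 3.87, *Mrpl52* at 23.7 ± 3.88, *Mrps21* at 21.9 ± 5.73 and *Mrpl43* at 21.1 ± 5.94 FPKM. Neighbours in the order of these 5 differed by less than their SD. The lowest tested member was *Mrpl33* at 0.545 ± 0.246 FPKM (SD, n = 5), 46.0-fold under *Mrpl28*, with *Mrpl32* at 1.31 ± 0.524 and *Mrps16* at 1.5 ± 0.640 FPKM above it. *Mrps18c* lay at 0.254 ± 0.204 FPKM, and *Mrpl53* was listed at 0 counts in all 9 libraries. The order of the 76 tested members was much alike in both genotypes, with a Spearman correlation across genes of 0.91 between the genotype means of FPKM, which share gene lengths. It also depended on the gene models. Exon lengths of all GENCODE models, in place of those without automated long-read models, gave a wildtype order with a Spearman correlation of 0.88 to the first. Between these 2 orders, 3 of the 5 highest and 4 of the 5 lowest members were shared.

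**Figure D3:**
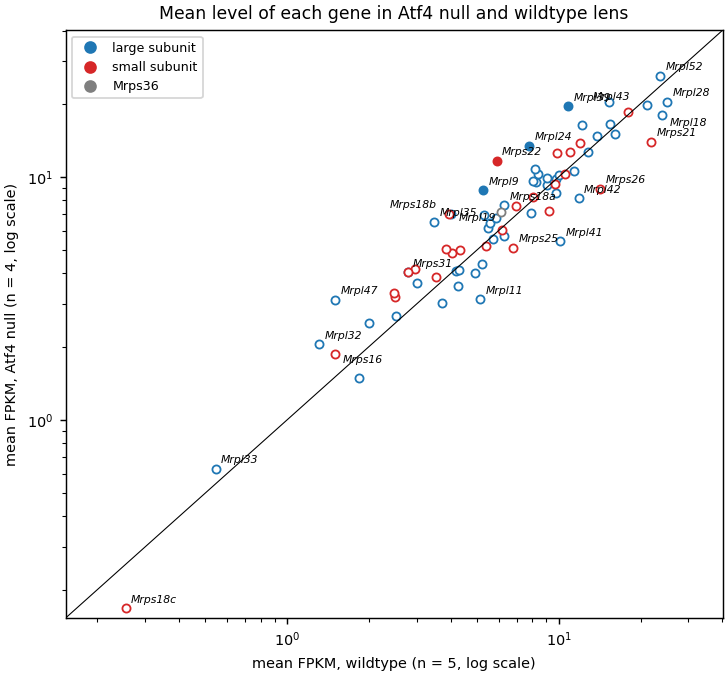
Mean FPKM of each detected mitochondrial ribosomal protein gene in wildtype (x axis, n = 5) and Atf4 null lenses (y axis, n = 4) on log axes, with the line of equal levels and filled points for an adjusted p below 0.05. Levels run from 0.254 (Mrps18c) to 25.1 FPKM (Mrpl28) in the wildtype, and most points lie near the line.

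None of the highly expressed members that were named for their level changed past the threshold in edgeR's fit. *Mrpl52* had log2 fold changes of 0.14 ± 0.15 (SE), *Mrpl28* of -0.30 ± 0.19 (SE) and *Mrpl43* of -0.10 ± 0.25 (SE), with edgeR adjusted p of 0.673, 0.434 and 0.880. *Mrpl18* had 27.6, 33.1, 37.0 and 37.7 CPM in the null and 49.8, 55.5, 40.8, 44.9 and 36.9 CPM in the wildtype libraries. Only wildtype library 5 overlapped the null libraries, and the log2 fold change was -0.43 ± 0.17 (SE) with an edgeR adjusted p of 0.167. Of the low ones, *Mrpl32* had 6.55 to 14.3 CPM in the null and 3.96 to 10.7 CPM in the wildtype, with a log2 fold change of 0.64 ± 0.36 (SE) and an edgeR adjusted p of 0.364. *Mrps16* (0.31 ± 0.50, SE) and *Mrpl33* (0.21 ± 0.50, SE) had the widest errors, as counts this low allow only a coarse comparison.

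Added up, the members held 0.180%, 0.196%, 0.195% and 0.203% of the gene counts of the null libraries and 0.171%, 0.168%, 0.161%, 0.168% and 0.152% of those of the wildtype libraries. By this share the genotypes did not overlap. With TMM factors, which take out the difference in composition between libraries, they did. Summed FPKM was 553, 643, 638 and 752 in the null and 673, 636, 612, 642 and 508 in the wildtype libraries, with means of 646 ± 81.5 (SD, n = 4) and 614 ± 63.3 (SD, n = 5). Their ratio was 1.05, and 0.995 without null library 4. TMM factors ran from 0.925 (null library 4) to 1.16 (null library 1). Null library 4 was the highest of the null libraries for 43 of the 76 tested members and null library 1 the lowest for 40, while wildtype library 5 was the lowest of the wildtype libraries for 30. The ratio of large to small subunit summed FPKM was 2.30 ± 0.0693 (SD, n = 4) in the null and 2.24 ± 0.104 (SD, n = 5) in the wildtype, a difference smaller than the SD in the wildtype libraries.

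**Figure D4:**
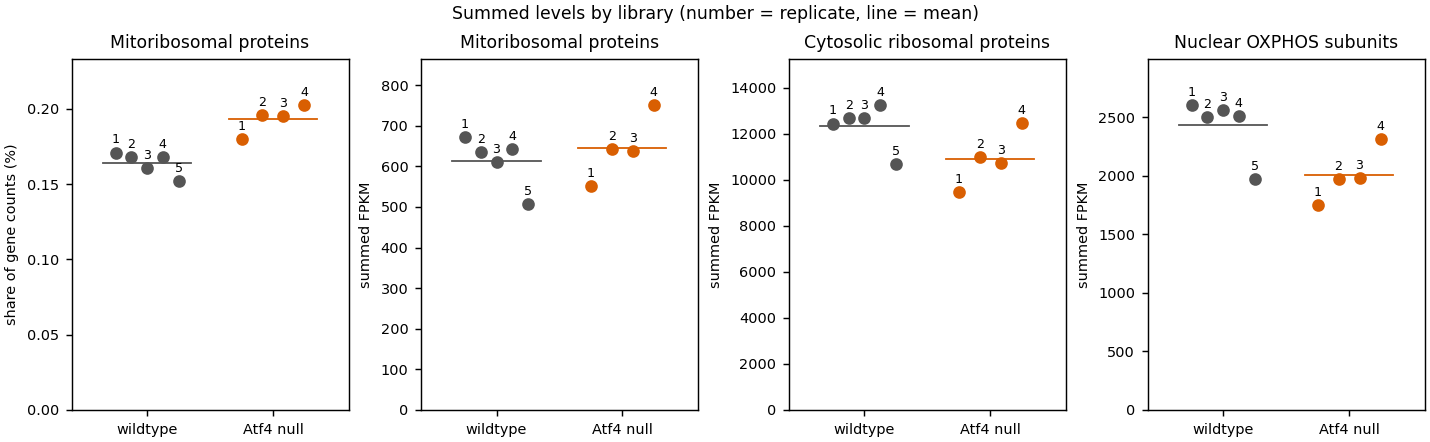
Summed level in each library (1 point each, labelled with its replicate number, line at the mean) for wildtype (n = 5) and Atf4 null (n = 4): the mitochondrial ribosomal proteins' share of gene counts in percent and their summed FPKM, then the summed FPKM of cytosolic ribosomal proteins and of nuclear oxidative phosphorylation (OXPHOS) subunits. The share does not overlap between genotypes (0.180% to 0.203% against 0.152% to 0.171%), while summed FPKM does in all 3 panels, for OXPHOS subunits through wildtype library 5 alone (1968 FPKM, against 2501 to 2605 in the other wildtype and 1752 to 2310 in the null libraries).

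Libraries differed in other tissues' RNA. Gene counts ran from 7440807 to 8696699 per null and from 8409779 to 8906996 per wildtype library. Lens markers were present in all libraries apart from *Lim2*, listed at 0. Of 10 lens epithelium markers, 8 were called lower in the null (median log2 fold change -1.53) and 0 higher, and of 12 tested lens fiber markers 4 were called lower (median -0.52). Fiber markers held 5.44% to 10.4% of gene counts in the null, 9.96% to 10.4% in wildtype libraries 1 to 4 and 6.43% in wildtype library 5. The libraries are bulk samples, in which fewer cells of a type and less RNA per cell cannot be told apart. Wildtype library 5 held skeletal muscle markers at 1.03% and mesenchyme markers at 1.49% of its gene counts, against at most 0.0182% and 0.0573% in any other library. Mesenchyme markers also differed between the genotypes in the other libraries, with 0.0192% to 0.0573% in the null and 0.00378% to 0.00867% in wildtype libraries 1 to 4, without overlap. Of these markers edgeR called 0 with all libraries (median log2 fold change -2.28, 1 lower at an unadjusted p below 0.05; 0 also with DESeq2 and the exactTest), but 6 of 7 tested higher without wildtype library 5 (median 2.65) and 6 of 8 higher with the replicate block (median 2.53). The share of gene counts held by neural retina markers was 0.0254% to 0.0907% in the null and 0.0169% to 0.0279% in the wildtype libraries. Scaled by TMM factors, their summed level did not overlap, with 275 to 786 CPM in the null and 183 to 266 CPM in the wildtype libraries. The highest value was that of null library 1, and the other null libraries lay at 275 to 528 CPM. All 10 retina markers were fitted above 0, with a median log2 fold change of 1.12, and edgeR called 3 higher. All 7 tested blood markers (median -0.95) and all 7 endothelial markers (median -0.68) were fitted below 0. Of the blood markers edgeR called 1 lower and DESeq2 4, and of the endothelial markers 0 and 2. Pigment cell markers, of which edgeR called 0, held 0.00398% to 0.0116% of gene counts in the null. They held 0.00186% to 0.00397% in wildtype libraries 1 to 4 and 0.0148% in library 5. The part of these differences in the members' values was not tested. Without wildtype library 5, edgeR called 4 members higher (all but *Mrpl9*, adjusted p = 0.0583) and 1 lower (*Mrpl41*), where it called 8.33% of all genes in either direction, and the members' median log2 fold change was 0.08, against 0.03 for all genes.

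Other genes needed for mitochondrial translation were described for comparison, from lists drawn up by function. The 5 mitoribosomal proteins with other symbols (*Dap3*, *Ptcd3*, *Gadd45gip1*, *Aurkaip1* and *Chchd1*) were all fitted above 0, with a median log2 fold change of 0.18. None was called by edgeR's quasi-likelihood test, its exactTest or DESeq2, and 1 was higher at an unadjusted p below 0.05. Of 25 mitoribosome assembly factors edgeR called 1 higher and 0 lower, with a median of 0.08, and DESeq2 called 1 higher and 1 lower. It was *Trub2*, a pseudouridine synthase, with 45.2, 54.1, 55.9 and 91.1 CPM in the null and 25.4 to 36.7 CPM in the wildtype libraries. *Trub2* had a log2 fold change of 0.94 ± 0.20 (SE), with an edgeR adjusted p of 0.0152 and the call kept under all 17 alternatives. Of 20 mitochondrial tRNA synthetases and related genes 1 was called higher, with a median of 0.06. It was *Qrsl1*, a subunit of the amidotransferase that makes glutaminyl-tRNA, with 19.1, 24.1, 31.7 and 31.9 CPM in the null and 6.32 to 16.3 CPM in the wildtype libraries. Its log2 fold change was 1.06 ± 0.27 (SE), with an edgeR adjusted p of 0.0363 and between 0.00527 and 0.109 under the alternatives, 10 of which kept the call. Of 16 translation factors 0 were called by edgeR's quasi-likelihood test, its exactTest or DESeq2 (median 0.11), while 4 were higher and 1 lower at an unadjusted p below 0.05. *Lrpprc*, which stabilizes mitochondrial mRNAs, was higher without overlap at 93.6 to 113 CPM against 76.1 to 84.7 CPM (log2 fold change 0.30 ± 0.10, SE, edgeR adjusted p = 0.127).

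The mitochondrial rRNAs, around which the mitoribosome is built, and 7 of 10 tested mRNAs of the mitochondrial genome were fitted lower in the null. *mt-Rnr1*, the small subunit rRNA, and *mt-Rnr2*, the large subunit rRNA, were lower without overlap by small amounts, with log2 fold changes of -0.17 ± 0.10 (SE) and -0.17 ± 0.09 (SE) and edgeR adjusted p of 0.378 and 0.348. With library size in place of TMM factors, their median was -0.04. Both rRNAs together held 4.67% to 5.28% of gene counts in the null and 4.77% to 5.45% in the wildtype libraries. Of the mRNAs, edgeR called 2 lower and 0 higher, with a median of -0.26, and 1 was higher at an unadjusted p below 0.05, *mt-Nd6*, which DESeq2 called. With library size, 1 mRNA was called lower and 1 higher, with a median of -0.14. *mt-Nd1* and *mt-Nd2*, which encode subunits of respiratory complex I, had log2 fold changes of -0.50 ± 0.11 (SE) and -0.56 ± 0.11 (SE), with edgeR adjusted p of 0.0155 and 0.0069. *mt-Nd2* had 230 to 245 CPM in the null and 318 to 407 CPM in the wildtype libraries and was called under all 17 alternatives, and *mt-Nd1* under 15. *mt-Nd6*, the one mRNA gene of the light strand, was higher without overlap (206 to 237 CPM against 152 to 201 CPM) and did not pass the test (edgeR adjusted p = 0.0814).

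The 2 larger nuclear families with related functions had medians of the opposite sign to that of the members. Of 77 tested cytosolic ribosomal proteins, which form the ribosome outside mitochondria, 0 were called higher and 4 lower by edgeR. These 4 are 5.19%, where 3.67% of all genes tested were called lower. Without overlap, 10 (13.0%) were lower, against 5.58% of all genes tested. Their median log2 fold change was -0.23, and -0.10 with library size. The count called lower was 9 with DESeq2 and 1 with the exactTest, which called 5.6% and 4.38% of all genes lower. It was 2 with library size (1 higher) and 15 without wildtype library 5, where 8.25% and 8.33% of all genes were called in either direction. The 82 tested nuclear subunits of the respiratory chain and ATP synthase join the products of mitochondrial translation. Of these, edgeR called 0 higher and 7 lower (8.54%, against 3.67% of all genes tested), with a median of -0.24 (-0.12 with library size). In this family, 10 were called lower with DESeq2, 7 with the exactTest, 4 with library size and 12 without wildtype library 5. At an unadjusted p below 0.05, 2 and 0 of these families' members were higher, and 29 and 22 lower. The members' median stayed above that of all genes under each scaling (0.24 against 0.12 with library size). The difference between the families was not tested.

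Of 16 tested genes for mitochondrial transcription and its regulators, 1 was called lower and 0 higher by edgeR, with a median of 0.33. It was *Ppargc1b*, a coactivator of nuclear genes for mitochondrial proteins, with 6.18, 8.40, 10.7 and 6.11 CPM in the null and 20.2, 16.3, 13.5, 22.0 and 22.4 CPM in the wildtype libraries. The fitted log2 fold change was -1.26 ± 0.26 (SE), with an edgeR adjusted p of 0.0124 and 0.0547 with the replicate block, the 1 of 17 alternatives that lost the call. *Nrf1* and *Yy1*, whose motif letters stand in members' promoters, had log2 fold changes of -0.19 and 0.32 with edgeR adjusted p of 0.460 and 0.0779, and *Gabpa* had 0.00 (0.997). DESeq2 called 4 genes of this list higher and the exactTest 1, and 6 were higher at an unadjusted p below 0.05. Of 12 mitochondrial proteases and chaperones, 0 were called by edgeR's quasi-likelihood test, its exactTest or DESeq2, and 1 was higher and 1 lower at an unadjusted p below 0.05, with a median of 0.07.

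The members lie on 17 chromosomes, with 11 on chromosome 11. Exons of 30 members overlap a protein-coding gene on the other strand, and those of 4 one on the same strand. The library kit marks strand, but the strand setting of the counting was not given in the sources used here, so counts of such pairs cannot be fully separated. For the members that rose, the partners did not pass the test in edgeR's fit. *Copb2*, over 197 bases of *Mrps22*, had a log2 fold change of 0.20 (adjusted p = 0.517), *Mettl25b*, over 1807 bases of *Mrpl24*, one of -0.07 (0.926), and *Gcfc2*, over 1962 bases of *Mrpl19*, one of 0.29 (0.632). *Oaz3*, over 157 bases of *Mrpl9*, had 8 counts in all 9 libraries together. *Nr2c2*, over 4593 bases of *Mrps25*, had a log2 fold change of -0.14 (edgeR adjusted p = 0.575). Starts of 25 members lie within 500 bases of that of a protein-coding gene on the other strand. Of these 25 partners, 1 was called higher by edgeR and 0 lower, where 5.9% of all genes were called. It was *Wdfy1*, next to *Mrpl44*, with a log2 fold change of 1.05 ± 0.21 (SE, adjusted p = 0.00922), where *Mrpl44* had 0.20 (0.754). None of the 5 members that rose has such a partner.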

How the data were processed

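Per the labels and the study's methods, whole-lens RNA of 9 embryos went into stranded total RNA libraries. The authors trimmed reads with Trim Galore and removed those that HISAT2 aligned to an rRNA sequence. They aligned the rest to GRCm39 and counted reads per gene with HTSeq on Ensembl 104. These raw counts are what was deposited. Their 5 summary entries, which name no gene (44.6% to 47.7% of reads), were left out. Replicate numbers follow sample titles. For wildtype samples, the title and the deposited file name different libraries, so these numbers, not the genotype, are uncertain. In chi-square tests no 2 libraries agreed within sampling noise (lowest chi-square per degree of freedom 7.70 in 36 pairs).

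After filterByExpr and TMM scaling, genotypes were compared with the quasi-likelihood test of edgeR 4.0.16 in R 4.3.3, without covariates, with Benjamini-Hochberg adjustment over 14903 genes and a threshold of 0.05. The procedure was tested on simulated data. FPKM divide TMM-scaled CPM by the summed exon length of GENCODE M39 models without the TAGENE tag (automated long-read models). Exact permutation tests used log2 CPM with a prior count of 2. Genes named were members called, members without overlap between genotypes, the 5 highest and 5 lowest in wildtype FPKM, the 5 largest fitted rises and falls, the *Mrps18* family, untested members, and called genes and mitochondrial rRNAs of the comparison lists. *Lrpprc*, *mt-Nd6*, *Nrf1*, *Yy1*, *Gabpa*, *Mrps36* and genes overlapping or neighbouring members were named after their values were seen. Members and lists were chosen with earlier results of these data known. Alternatives were DESeq2 1.42.0, exactTest, library size, TMM factors without crystallins, a robust fit, a replicate block, no filter on low counts, a minimum of 10 counts per library and leaving out each library. Promoter windows are from RefSeq (GRCm38.p6).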

Additional observations from a re-analysis of the deposited data

Results flagged for a closer look

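In 54 groups of 4 or 5 libraries (both genotypes for each named member and for 2 summed levels of the members), 3 held a library far from the others, where chance gives about 1 in 20. *Mrpl24* lay at 60.0 CPM in *Atf4* null library 4, against 40.7 to 44.0 CPM in the other null libraries. *Mrpl33* lay at 6.48 CPM in null library 1, against 3.72 to 4.17 CPM in the other null libraries. *Mrpl33* also lay at 0.886 CPM in wildtype library 4, against 4.28 to 5.52 CPM in the other wildtype libraries.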

How the results depend on the processing

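The number of members called higher was 5, and 3 with the replicate block, which lost *Mrpl19* and *Mrpl9*. Only the wildtype has a library 5, so the block also takes that library out of the comparison, and leaving it out alone lost *Mrpl9*. With 1 library left out it ran from 2 (without null library 2 or wildtype library 3) to 4. The number called lower was 0, and 2 with DESeq2, 1 with edgeR's exactTest and 0 to 1 with 1 library left out (1 without null library 4, *Mrpl11*, and 1 without wildtype library 5, *Mrpl41*). Over all genes, 880 were called, 1397 with DESeq2, 852 with the replicate block and 527 (without null library 2) to 1207 (without wildtype library 5) with 1 library left out. The members' median log2 fold change of 0.13 ran from 0.02 (without null library 4) to 0.18 (without null library 1). The ratio of summed FPKM, 1.05, ran from 0.995 (without null library 4, a change of direction within the spread of the libraries) to 1.10 (without null library 1). Library size without TMM factors shifted the median of all genes to 0.12, that of the members to 0.24, and the share of called genes that were higher from 37.8% to 64.3%. Of 390 values of 23 named members under the alternatives, 355 kept direction and call, 21 lost the call, 10 gained one and 4 changed sign. The sign changes were *Mrpl33* (-0.045 without wildtype library 4, and up to 0.35 without wildtype library 1) and *Mrpl43* (0.016 with library size, 0.026 without null library 3, 0.011 without wildtype library 1, and down to -0.30 without null library 4), none of them called. The causes were not tested. Same-numbered libraries did not deviate together (correlations from -0.13 to 0.01 in 4 pairs, and from -0.19 to 0.22 in the other 16 pairs). As the wildtype replicate numbers are uncertain, this check cannot decide whether libraries of the 2 genotypes were paired. With 4 and 5 libraries and a median of 1508 counts per tested member, the median standard error was 0.23 on the log2 scale.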

Other observations

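The 3 proteins of the factor-recruiting stalk (*Mrpl10*, *Mrpl11* and *Mrpl12*) were all fitted below 0, with a median log2 fold change of -0.10, which was 0.01 with library size in place of TMM factors and 0.04 without null library 1. The 6 proteins at the tunnel exit (*Mrpl17*, *Mrpl22*, *Mrpl23*, *Mrpl24*, *Mrpl45* and *Mrpl47*) had a median of 0.16 and a range from -0.30 (*Mrpl23*) to 1.05 (*Mrpl47*), with *Mrpl24* called. The 6 processed pseudogenes with an Mrpl or Mrps symbol fell outside the rule, and had at most 123 counts each over the 9 libraries.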
